A study of Mus musculus with 6 samples.

Results

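Neuronal cytoskeleton and axon growth genes were followed through a PhosphoTRAP experiment on warm-challenged mice. The set holds 10 genes, of 13724 gene entries in the table, and was chosen by symbol: the neurofilament subunit genes Nefl, Nefm, Nefh and Ina, the microtubule genes Tubb3, Map2 and Mapt, the growth-associated genes Gap43 and Stmn2, and Uchl1. Of these, 9 were listed under these symbols, and Map2 was listed as Mtap2, which RefSeq gives as a synonym. All 10 passed the filter on low values and were tested.

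In PhosphoTRAP, ribosomes are pulled down through S6, one of their proteins, when it carries phosphate at residues 244 and 247, which in neurons happens after activity, and the RNA on them is sequenced. The immunoprecipitate (IP) and the total RNA (Input) of 3 numbered warm challenges gave 6 libraries, 3 per group. All came from wild type C57Bl6/J mice, from the anterior hypothalamus dissected out of 0.5 mm sections, and the labels call the tissue preoptic neurons. The labels used here give no age, temperature, duration or number of animals per challenge, and every library had the warm exposure, so IP against Input compares RNA fractions and not temperatures. Nothing states that the 3 challenges used separate animals, so p-values measure the spread between these libraries, which may be technical.

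Neurofilaments are the intermediate filaments of neurons. They are built from light (Nefl), medium (Nefm) and heavy (Nefh) chains, with alpha-internexin (Ina) as a further subunit in the central nervous system, and they set the calibre of axons. Microtubules are polymers of alpha and beta tubulin. Tubb3 is the beta tubulin typical of neurons, while MAP2 binds microtubules mainly in dendrites and tau (Mapt) mainly in axons. GAP-43 is a membrane protein of growth cones, stathmin-2 (Stmn2) destabilises microtubules in growing axons, and UCHL1 is an abundant neuronal ubiquitin hydrolase long used as a histological marker of neurons.

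Summed RPKM (reads scaled to gene length and library size) lay between 374708 and 496125 in the IP libraries and between 384389 and 476059 in the Input libraries. IP 1 stood apart, with Spearman correlations across genes of 0.915 to 0.927 with the other IP libraries, against 0.955 between IP 2 and IP 3. Correlations of IP with Input libraries were 0.902 to 0.941, so IP 1 was no closer to the other IP libraries than that. Input libraries correlated at 0.952 to 0.980. RNA of other cell types was present in both fractions despite the tissue label. The 15 listed oligodendrocyte markers summed to 411 to 621 RPKM in IP libraries and 1225 to 1351 RPKM in Input libraries. The 11 astrocyte markers summed to 298 to 326 RPKM in IP libraries and 320 to 438 RPKM in Input libraries.

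The comparison of IP with Input asks which transcripts are over-represented on phosphorylated ribosomes. The 3 neurofilament triplet genes were 1.70 to 1.77 times as high in IP as in Input (fold back-transformed from log2(RPKM + 1)), and for each gene every IP library lay above every Input library. Tubb3 and Ina leaned the same way by less, Map2 and Mapt had folds near 0, and Gap43, Stmn2 and Uchl1 were lower in IP within each challenge. By limma with Benjamini-Hochberg adjustment over 12328 genes, 0 of the 10 genes passed an adjusted p of 0.05. Over all genes 4.19% passed, 0.892% higher and 3.29% lower in IP. At an unadjusted p under 0.05, 3 of the 10 were higher (Nefl, Nefm and Nefh) and 0 lower, beside 24.4% of all genes in either direction and 5.04% higher. That count of 3 became 0 without Input 1, 2 without Input 2 and 4 without IP 1. The median log2 fold of the 10 genes was 0.15, against -0.18 over all genes tested, and both values are given without a test. With the numbered challenge as a block 0 of the 10 passed as well, while 5.32% of all genes did, 1.33% higher and 3.99% lower. After median scaling of the libraries the medians were 0.34 for the 10 genes and -0.02 for all genes, and 0 of the 10 passed, beside 2.02% of all genes (0.982% higher, 1.04% lower). After quantile normalization 0 of the 10 passed, beside 2.05% of all genes (1.05% higher, 1.01% lower). Lower calls thus made up 78.7% of all calls as deposited, 51.4% after median scaling and 49.0% after quantile normalization.

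The number of genes that stood apart can be set against the same count over all genes. For 3 of the 10 genes all IP values lay above all Input values, a pattern seen in 6.85% of all genes, and for 0 all lay below, against 23.5% of all genes. Within the 3 challenges taken in turn, 5 of the 10 were higher in IP every time (14.0% of all genes) and 3 were lower every time (37.5% of all genes).

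**Figure D1:**
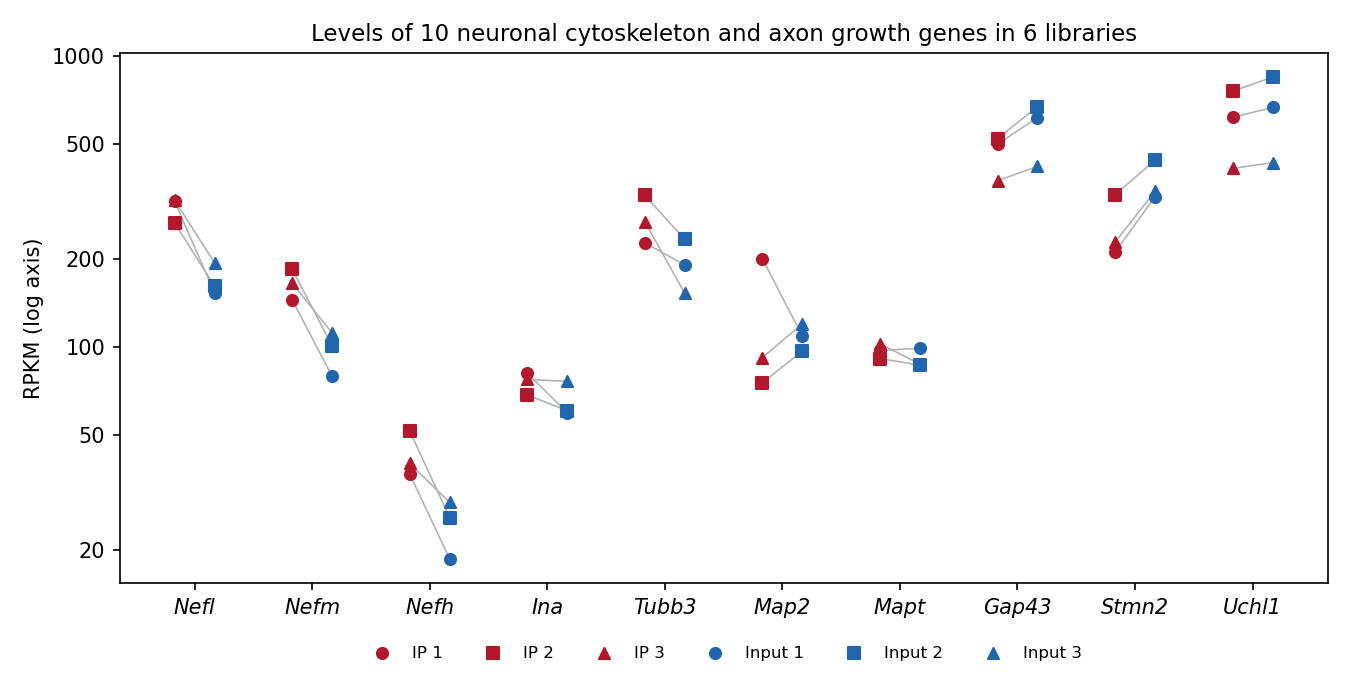
RPKM (log axis) of the 10 genes in each library, with IP (red) left of Input (blue), symbols for the 3 warm challenges and grey lines joining the libraries of a challenge. The IP points of Nefl, Nefm and Nefh lie above all their Input points, while the Map2 point of IP 1 (201 RPKM) stands far above those of IP 2 and IP 3.

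Nefl, the light chain on which neurofilaments assemble, had 316.7, 266.7 and 319.2 RPKM in IP 1 to 3, against 153.7, 161.9 and 194.7 RPKM in Input 1 to 3. The lowest IP value was thus above the highest Input value. Its log2 fold was 0.82 (SE 0.26, adjusted p = 0.0976), higher than the folds of 97.1% of the genes tested. The log2 ratio of IP to Input within challenges 1 to 3 was 1.04, 0.72 and 0.71.

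Nefm, the medium chain, had 145.2, 185.2 and 165.6 RPKM in IP 1 to 3, against 79.3, 100.9 and 111.8 RPKM in Input 1 to 3. The groups did not overlap, and the log2 fold was 0.77 (SE 0.25, adjusted p = 0.105). Nefh, the heavy chain with the long phosphorylated tail, was the least abundant of the 10 genes in every library. It had 36.6, 51.5 and 39.8 RPKM in IP 1 to 3, against 18.7, 25.95 and 29.2 RPKM in Input 1 to 3. Again no IP value fell among the Input values, and the log2 fold was 0.78 (SE 0.25, adjusted p = 0.0986).

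Leaving out single libraries moved these 3 genes across the threshold in a single case. Without IP 1, Nefm (log2 fold 0.86, adjusted p = 0.0498) and Nefh (log2 fold 0.88, adjusted p = 0.0496) passed and Nefl (log2 fold 0.78, adjusted p = 0.0735) did not, in a fit in which 13.8% of all genes passed, 3.62% as higher and 10.2% as lower in IP. With median scaling as well, Nefm and Nefh again passed (log2 folds 1.04 and 1.06), where 4.88% of all genes passed as higher and 5.17% as lower. When any other single library was left out, 0 of the 10 genes passed. The summed oligodendrocyte markers, given above, were lower in every IP library than in every Input library, and the astrocyte sums overlapped between the groups. Their part in the neurofilament folds was not tested. In such bulk fractions, fewer cells of a type contributing RNA to the IP and less RNA from each of them cannot be told apart.

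Ina had 81.3, 68.4 and 77.4 RPKM in IP 1 to 3, against 59.5, 60.4 and 76.2 RPKM in Input 1 to 3. It was higher in IP in each challenge, but by a log2 ratio of 0.45, 0.18 and 0.02, and the groups overlapped at Input 3. The log2 fold was 0.21 (SE 0.22, adjusted p = 0.599), and 0.33 without Input 3.

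The 4 subunit genes kept a similar order of abundance per length in both fractions, with Nefl first, Nefm next and Nefh last. As shares of their summed RPKM, Nefl made up 51.4% ± 4.22 in IP and 47.7% ± 1.55 in Input (SD, n = 3 each). Nefm made up 28.3% ± 3.74 in IP and 27.2% ± 1.70 in Input, and Nefh 7.31% ± 1.47 in IP and 6.85% ± 0.742 in Input. These 3 shares overlapped between the fractions. The Ina share was 14.0%, 11.96% and 12.9% in IP 1 to 3, against 19.1%, 17.3% and 18.5% in Input 1 to 3. All IP values of that share lay below all Input values, and no test was made of the shares. Ina itself was not lower in IP, with a mean of 75.7 RPKM against 65.4 RPKM in Input. The sum of Nefl, Nefm and Nefh averaged 509 RPKM in IP and 292 RPKM in Input. The lower Ina share thus follows from the higher values of those genes and adds nothing to the single values. Shares within a library do not depend on how the libraries are scaled to each other.

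**Figure D2:**
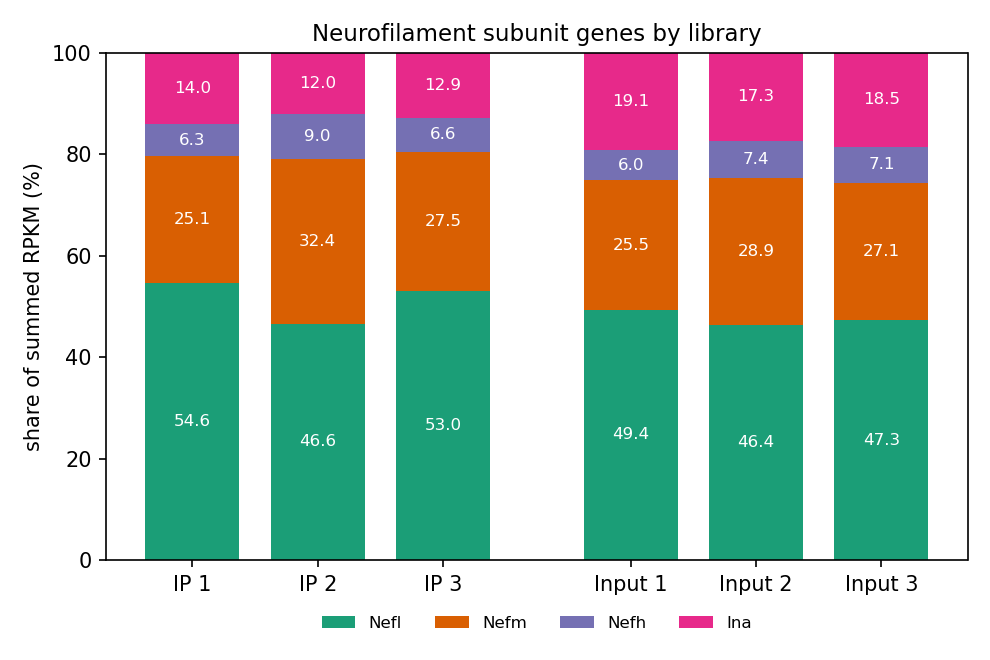
Shares (%) of Nefl, Nefm, Nefh and Ina in the summed RPKM of these 4 genes, 1 bar per library, IP bars left of Input bars, with the percentage printed in each segment. The Ina segment is 11.96% to 14.0% in IP libraries and 17.3% to 19.1% in Input libraries, although the RPKM of Ina itself was higher in IP in each challenge.

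The heavy-to-light ratio of the fractions differed by less than its spread between libraries. The log2 ratio of Nefh to Nefl was -2.83 ± 0.399 in IP and -2.81 ± 0.207 in Input (SD, n = 3 each), a difference of -0.02 (exact two-sided permutation test, p = 1.0). In linear terms it was highest in challenge 2 in both fractions, 0.193 in IP 2 and 0.160 in Input 2, and lowest in challenge 1, 0.116 in IP 1 and 0.122 in Input 1. With 3 libraries against 3 such a test cannot give a p below 0.1, and 4 ratios were tested in all, with p-values adjusted over the 4.

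Among the microtubule genes, Tubb3 leaned towards IP. It had 228.1, 331.7 and 269.5 RPKM in IP 1 to 3, against 191.2, 234.1 and 152.8 RPKM in Input 1 to 3. It was higher in IP in all 3 challenges, by a log2 ratio of 0.25, 0.50 and 0.82, but IP 1 lay below Input 2. The log2 fold was 0.52 (SE 0.29, adjusted p = 0.301). The log2 ratio of Nefl to Tubb3 was 0.13 ± 0.405 in IP and -0.17 ± 0.459 in Input, a difference of 0.30 that was smaller than either SD (exact permutation test, p = 0.4, adjusted p = 0.8). It was higher in IP in 2 of 3 challenges. The difference was 0.12 without Input 2 and 0.13 without IP 1, against 0.52 without IP 2 and 0.56 without Input 3.

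Map2 was the gene with the widest spread. It had 201.0, 75.4 and 92.0 RPKM in IP 1 to 3, against 108.9, 96.8 and 120.1 RPKM in Input 1 to 3. IP 1 was above every Input library, whereas IP 2 and IP 3 were below every one. The coefficient of variation was 55.6% in IP and 10.8% in Input, while for the other 9 genes it did not exceed 32.2% in either group. The log2 fold was 0.05 (SE 0.36, adjusted p = 0.959), and it was -0.37 without IP 1 (adjusted p = 0.278).

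Mapt was the steadiest of the 10. It had 97.3, 91.3 and 102.6 RPKM in IP 1 to 3, against 99.0, 86.6 and 87.3 RPKM in Input 1 to 3, and the groups overlapped. The coefficient of variation was 5.82% in IP and 7.65% in Input, and the log2 fold was 0.09 (SE 0.22, adjusted p = 0.836). The log2 ratio of Map2 to Mapt, a dendritic against an axonal partner of microtubules, was 1.05, -0.28 and -0.16 in IP 1 to 3, against 0.14, 0.16 and 0.46 in Input 1 to 3. The groups differed by -0.05 (exact permutation test, p = 1.0), and by -0.47 without IP 1 (p = 0.2).

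**Figure D3:**
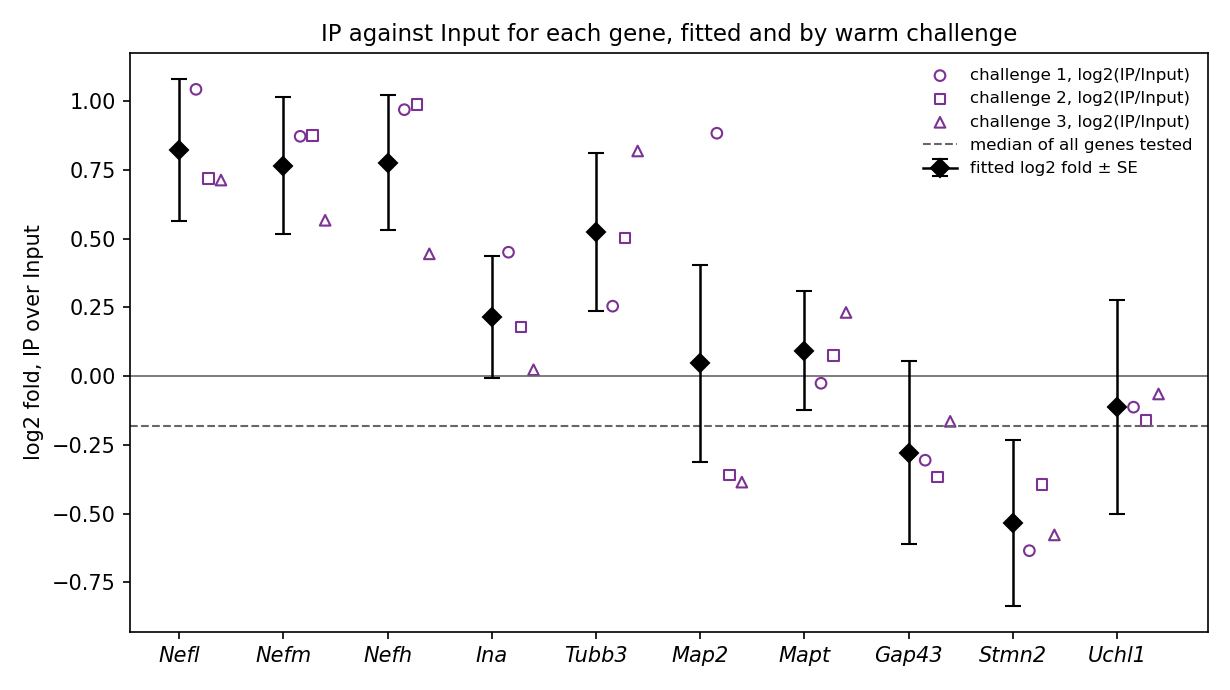
Log2 fold of IP over Input for each gene, as the fitted value ± SE (black diamonds, n = 3 per group) and as log2(IP/Input) within each warm challenge (open symbols). Nefl, Nefm and Nefh lie at 0.77 to 0.82, Stmn2 at -0.53, and the dashed line marks the median of all genes tested at -0.18.

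Gap43 and Stmn2 had negative folds that did not pass, and their groups overlapped. Gap43 had 497.1, 519.6 and 372.4 RPKM in IP 1 to 3, against 614.3, 669.9 and 417.3 RPKM in Input 1 to 3. IP was lower within each challenge, yet IP 1 and IP 2 lay above Input 3. The log2 fold was -0.28 (SE 0.33, adjusted p = 0.655), or -0.10 relative to the median of all genes, and it ran from -0.13 without IP 3 to -0.48 without Input 3. Stmn2 had 211.6, 333.7 and 229.4 RPKM in IP 1 to 3, against 328.5, 438.1 and 342.2 RPKM in Input 1 to 3. The groups overlapped because IP 2 exceeded Input 1 slightly, and the log2 fold was -0.53 (SE 0.30, adjusted p = 0.313). The log2 ratio of Gap43 to Stmn2 was 0.86 ± 0.326 in IP and 0.60 ± 0.308 in Input (SD, n = 3 each). It was higher in IP in 3 of 3 challenges, a difference of 0.26 within the SD of either group (exact permutation test, p = 0.4, adjusted p = 0.8). That difference was 0.07 without IP 1 and 0.10 without Input 3.

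The neurofilament triplet was also set against the growth-associated genes as a ratio. The summed RPKM of Nefl, Nefm and Nefh was 0.703, 0.590 and 0.872 times that of Gap43 and Stmn2 in IP 1 to 3, against 0.267, 0.261 and 0.442 times in Input 1 to 3. All IP ratios were above all Input ratios. This ratio was formed after the single genes had been seen and is a description without a test. Each gene above the line was higher in IP in every challenge, and each gene below it was lower. The separation of the ratio was thus largely built in by the choice of genes and adds nothing to their single values.

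Uchl1 was the most abundant of the 10 genes in every library. It had 615.1, 756.5 and 410.9 RPKM in IP 1 to 3, against 665.0, 845.7 and 429.7 RPKM in Input 1 to 3. Its level differed far more between challenges than between fractions, being highest in challenge 2 and lowest in challenge 3 in both. Gap43 had the same order of challenges in both fractions. Within challenges the Uchl1 log2 ratio of IP to Input was -0.11, -0.16 and -0.06, and the log2 fold was -0.11 (SE 0.39, adjusted p = 0.898). Its sign depended on scaling, the log2 fold being 0.079 after median scaling (adjusted p = 0.934).

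The order of levels per length varied between libraries in its middle. Uchl1 and Gap43 came first in all 6 libraries, and Ina and Nefh came last. Stmn2 came next after Gap43 in all 3 Input libraries and in IP 2, whereas Nefl did in IP 1 and IP 3. In Input, Stmn2 had a mean of 370 ± 59.7 RPKM, above Tubb3 at 193 ± 40.7 and Nefl at 170 ± 21.7 RPKM. In IP, Nefl averaged 301 ± 29.6, Tubb3 276 ± 52.1 and Stmn2 258 ± 66.0 RPKM (SD, n = 3 each), so these 3 could not be ordered beyond their spread. Tubb3 and Nefl could not be ordered in Input either. All 10 genes were well expressed, since even Nefh in Input 1 exceeded 70.1% of the listed genes and Uchl1 was above at least 98.8% in every library.

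RefSeq promoter windows (build GRCm38.p6, from 250 bases before to 50 after the start) matched 4 of the 10 genes. They lie at chr19:47014431-47014730 (Ina), chr8:123411303-123411602 (Tubb3), chr5:66675871-66676170 (Uchl1) and chr1:66175079-66175378 (Map2), all on the plus strand. Those of Ina and Tubb3, which hold a match marked in capitals, are shown with that of Uchl1, which holds none. The Map2 window, also without such a match, is not shown. None of the 4 genes passed, and a link of matches to folds was not tested. Capitals mark a match to GCGNGGGCG, a loose pattern searched for Egr transcription factors, in which N is any base. The gene Egr1 of that family belongs to the activity-regulated list. In Tubb3 the base at N is A, and not every base there need give a site that Egr factors bind. The Ina match lies on the minus strand, so its capitals show the reverse complement.
Ina: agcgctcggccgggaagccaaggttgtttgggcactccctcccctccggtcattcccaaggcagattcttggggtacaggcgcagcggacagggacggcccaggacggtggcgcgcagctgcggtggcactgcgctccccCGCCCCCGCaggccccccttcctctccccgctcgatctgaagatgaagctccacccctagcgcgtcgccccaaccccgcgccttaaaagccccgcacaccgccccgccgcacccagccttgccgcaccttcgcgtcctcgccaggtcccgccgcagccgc
Tubb3: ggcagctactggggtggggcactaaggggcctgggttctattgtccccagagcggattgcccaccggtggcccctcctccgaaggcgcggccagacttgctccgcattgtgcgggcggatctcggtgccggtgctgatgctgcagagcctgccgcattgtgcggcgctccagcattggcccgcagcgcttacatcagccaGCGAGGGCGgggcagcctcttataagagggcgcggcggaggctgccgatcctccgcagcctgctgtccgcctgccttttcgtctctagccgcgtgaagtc
Uchl1: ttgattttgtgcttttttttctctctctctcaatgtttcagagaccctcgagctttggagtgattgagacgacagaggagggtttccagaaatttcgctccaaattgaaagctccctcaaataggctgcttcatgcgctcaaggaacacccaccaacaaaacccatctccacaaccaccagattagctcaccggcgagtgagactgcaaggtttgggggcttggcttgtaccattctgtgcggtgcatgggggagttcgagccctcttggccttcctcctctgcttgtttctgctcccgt
Of 6 motifs searched on both strands, this one matched once in Ina and once in Tubb3, each time overlapping a GC box (GGGCGG), and not in Uchl1 or Map2. It is found in 5.55% of all 32851 promoter windows of this length. The GC box itself matched 2 times in Ina, 2 times in Tubb3, 5 times in Map2 and 0 times in Uchl1, and in 35.7% of all windows. The cAMP response element (TGACGTCA, 1.79% of windows), the AP-1 motif (TGANTCA, 7.81%) and the TATA box (TATAAA, 13.6%) matched in none of the 4, and CCAAT (37.4%) matched once in Tubb3. These matches describe the letters of the windows and are not evidence of binding.

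Other genes of the cytoskeleton placed these 10 in context. As fitted, 0.892% of all genes passed as higher and 3.29% as lower, and the count of each list below stands beside these shares. Of 15 other tubulin genes, 0 passed, and their median log2 fold was 0.47, against -0.18 over all genes tested. Their summed RPKM was 5086 to 6217 in IP libraries and 3327 to 4170 in Input libraries. These sums did not overlap, and they weigh the most abundant tubulins most. Among single genes, all IP values lay above all Input values in 6.85% of those tested. Tuba4a, an alpha tubulin, had 668.3, 464.8 and 423.1 RPKM in IP 1 to 3, against 222.3, 260.7 and 217.3 RPKM in Input 1 to 3 (log2 fold 1.12, adjusted p = 0.0675). For Tuba8 the log2 fold was 1.00, with an adjusted p of 0.0992 as fitted and 0.0385 with the block. Without IP 1, Tubb5 passed as higher (log2 fold 1.14, adjusted p = 0.0408). In that fit 3.62% of all genes passed as higher and 10.2% as lower. These shares also stand beside the calls without IP 1 in the lists below. Tubulin genes are close paralogs, and the counting could have split reads among them, Tubb3 included.

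Of 22 other microtubule-associated protein genes, 0 were higher and 2 lower, with a median log2 fold of 0.01. Dcx, doublecortin of immature neurons, had 3.80, 2.23 and 2.32 RPKM in IP 1 to 3, against 7.82, 7.33 and 11.9 RPKM in Input 1 to 3 (log2 fold -1.40, adjusted p = 0.0308). Tppp, a tubulin polymerisation-promoting protein known from oligodendrocytes, averaged 79.0 ± 1.63 RPKM in IP and 159 ± 11.4 RPKM in Input (log2 fold -0.999, adjusted p = 0.0426). When single libraries were left out, both calls survived only the omission of IP 1, and that of Tppp ended after median scaling (adjusted p = 0.0914) and quantile normalization (adjusted p = 0.0671). With the block 3 were lower, Map6d1 being added (log2 fold -1.02, adjusted p = 0.0479), and without IP 1 Mtap7 was lower too.

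Of 15 other stathmin and growth cone genes, 0 passed (median log2 fold 0.06). The log2 fold of Nrn1, a membrane-anchored neurite growth protein, was 0.82 (adjusted p = 0.146). Marcks, like GAP-43 a protein kinase C substrate, was at 0.82 as well (adjusted p = 0.184). Without IP 1, Marcks passed as higher (adjusted p = 0.0133) and Cntn2, an axonal adhesion molecule, as lower (adjusted p = 0.0255). Of 13 ankyrin, spectrin and axon initial segment genes, 0 passed (median log2 fold 0.22). The log2 fold was 0.80 for Spna2, alpha-II spectrin (adjusted p = 0.0880). For Nfasc, neurofascin of the initial segment and node, it was 0.88 (adjusted p = 0.107, and 0.0467 with the block).

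Among 22 axonal transport motor genes, Dync1h1 was higher and 0 were lower (median log2 fold 0.06). Dync1h1, the dynein heavy chain that drives retrograde transport, had 41.8, 42.2 and 65.8 RPKM in IP 1 to 3, against 15.8, 15.1 and 27.7 RPKM in Input 1 to 3. The groups did not overlap, and the log2 fold was 1.33 (SE 0.29, adjusted p = 0.0426), a call that ended when any single library other than IP 1 was left out. The light intermediate chain gene Dync1li2 had a log2 fold of -0.68 (adjusted p = 0.0986).

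Of 18 genes for kinases and phosphatases that act on tau and MAP2, 0 passed (median log2 fold 0.14). Mark4, a microtubule affinity-regulating kinase, had 0.91 (adjusted p = 0.0834, and 0.0461 with the block) and the tyrosine kinase gene Fyn 0.98 (adjusted p = 0.0903). Without IP 1, Mark4, Fyn, Ppp2r2a and Ppp2r2b were higher and Mapk8 was lower. Over all genes that fit called 3.62% higher and 10.2% lower. Of 10 other ubiquitin hydrolase and ubiquitin genes, 0 passed (median 0.16). Uba1, the ubiquitin-activating enzyme, had 0.75 (adjusted p = 0.102) and the hydrolase gene Uchl5 -0.54 (adjusted p = 0.205).

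Of 6 other intermediate filament genes tested, 0 passed (median log2 fold -0.29). Gfap, the filament of astrocytes, averaged 4.72 ± 2.74 RPKM in IP and 10.2 ± 1.04 RPKM in Input (log2 fold -1.07, adjusted p = 0.0834), and it was lower without IP 1 (adjusted p = 0.00994). Lmna, a nuclear lamin, had 0.67 (adjusted p = 0.199).

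**Figure D4:**
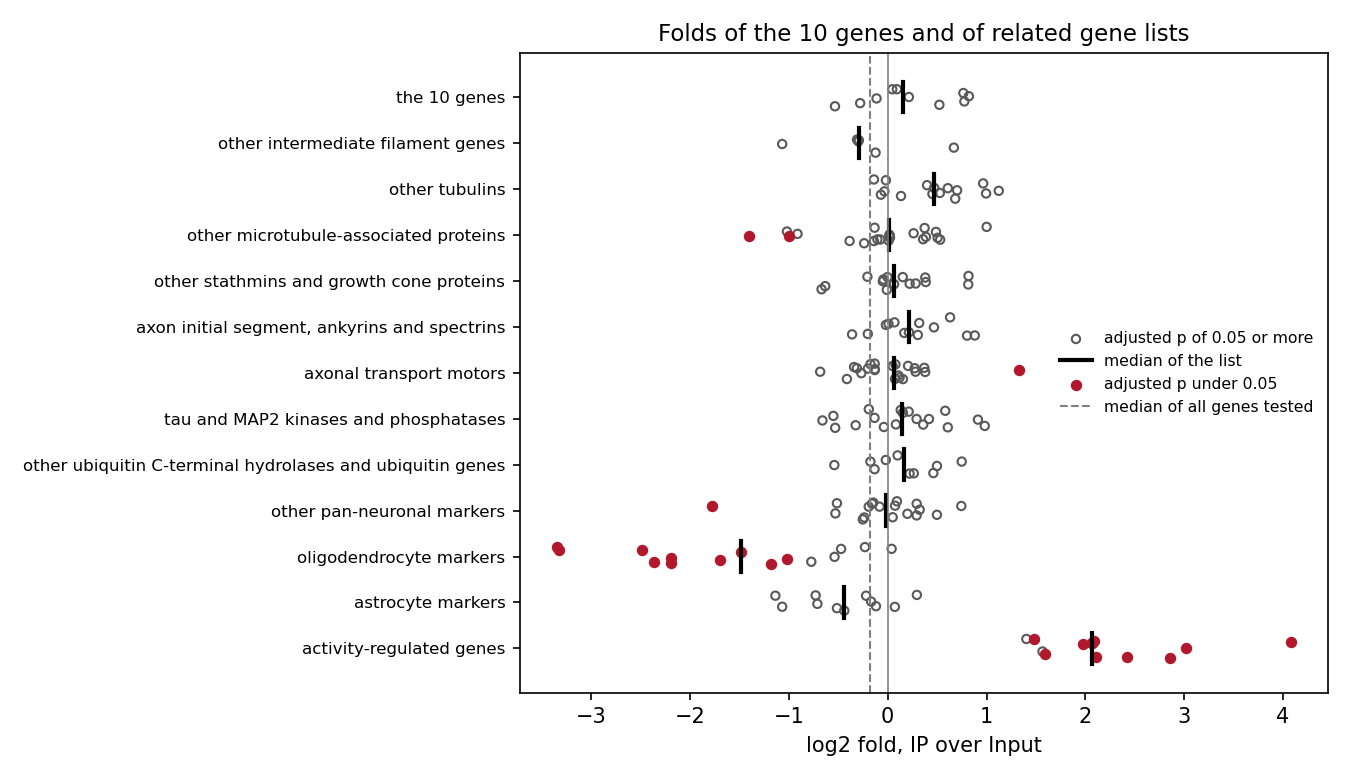
Log2 fold of IP over Input (horizontal axis) of every gene tested in each list shown, filled where the adjusted p was under 0.05. The list median is a black bar and the median of all genes a dashed line. The microglia, endothelial and mural, and erythroid lists are not shown. None of the 10 genes is filled, 10 of 15 oligodendrocyte markers are filled below 0, and 11 of 13 activity-regulated genes are filled above 0.

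Cell type markers gave the frame for these values, again beside 0.892% of all genes passing as higher and 3.29% as lower. Of 18 other pan-neuronal markers, 0 were higher and 1 lower, with a median log2 fold of -0.02. The lower one was Nrsn1, neurensin, at 36.7 ± 8.48 RPKM in IP and 127 ± 6.38 RPKM in Input (log2 fold -1.78, adjusted p = 0.0107), a call that ended without Input 1 (adjusted p = 0.0694) or Input 2 (adjusted p = 0.0608). Of 15 oligodendrocyte markers, 10 were lower and 0 higher (median -1.48), and 7 were lower after median scaling. Among them the myelin-associated genes Ermn (log2 fold -3.35, adjusted p = 0.00385) and Mal (-3.33, adjusted p = 0.00131) fell most, followed by Aspa (-2.49) and Opalin (-2.37), whose call ended without Input 1 or Input 2. Of 11 astrocyte markers, 0 passed (median -0.44), and 3 were lower without IP 1. Aqp4, the astrocyte water channel, had the smallest p of that list (log2 fold -1.14, adjusted p = 0.0616, and 0.0400 with the block).

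Of 6 microglia markers tested, 1 was higher, Cd68 (log2 fold 1.44, adjusted p = 0.0426), while Aif1 had a log2 fold of -0.59 (adjusted p = 0.296). Of 2 endothelial and mural markers tested, Rgs5 was lower (log2 fold -1.32, adjusted p = 0.0305) and the glucose transporter gene Slc2a1 had -0.24 (adjusted p = 0.639). When single libraries were left out, the call of Cd68 held without IP 1 and that of Rgs5 without IP 1 or IP 3, and both ended in the other cases. Quantile normalization also ended the call of Rgs5 (adjusted p = 0.0608). All 3 erythroid genes tested were higher (median 2.90). These haemoglobin genes, Hbb-b1, Hba-a1 and Hba-a2, include near-identical copies whose reads may be split, and Hbb-b1 and Hba-a1 kept their calls only without IP 1, while Hba-a2 lost its call without Input 2 or Input 3. Of 13 activity-regulated genes, 11 were higher (median 2.07) and 12 with the block. The transcription factor genes Fosb (log2 fold 4.08, adjusted p = 0.000308), Fosl2 (3.01) and Fos (2.42) and the neurotrophin gene Bdnf (2.86) rose most among them. The call of Bdnf ended without Input 2 or Input 3, and that of Fos held only without IP 1 or IP 3.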

How the data were processed

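Linear RPKM values per gene were deposited by the authors for the 6 libraries, in a single table, per the file headers. The submitters' processing notes name the genome build mm9. The aligner, the counter and the annotation were not given in the sources used here. Every listed value lies above 0.1 RPKM, so genes at that floor in any library were not analysed. RPKM holds no read counts, so depth stays unknown in absolute terms. The steps between low values did not settle relative depth either. Set against Input 1, the best depth of each other library brought 11.8% to 17.3% of its low values to whole-number ratios (up to 4, tolerance 0.5%) and the next best depth 11.0% to 14.9%. Input 2 tied at 1.39 and 0.694, and Input 3 had the widest gap, 17.3% against 14.8%.

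Values were analysed as log2(RPKM + 1), which understates folds of low genes, for the 12328 genes that reached 1 RPKM in at least 3 libraries. IP was compared with Input by limma 3.58.1 (R 4.3.3, mean-variance trend, no block, two-sided). Benjamini-Hochberg adjustment ran over all genes tested, with a threshold of 0.05. The fit was first tried on simulated data. There it recovered 16% of 100 genes changed by a log2 fold of 1 in either direction. Of 100 genes changed by 2 it recovered 92%. A gene that did not pass is thus not shown to be unchanged. Ratios of gene pairs used exact permutation tests (scipy 1.17.1, Python 3.11.15). The label numbers mark a shared warm challenge and so pair IP with Input. Deviations from group means correlated across genes within pairs 1 to 3 by 0.0548, 0.612 and 0.272. Differently numbered libraries gave -0.524 to 0.177, and IP 1 with Input 3 (0.177) and IP 2 with Input 1 (0.164) exceeded pair 1, so the pairing rests on the labels.

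The 10 genes and the 15 other lists were chosen with earlier results of these data known. From each other list the rule named up to 4 genes past the threshold with the largest folds, or those with the smallest p until 2 were named. Beyond the rule, Map6d1, Mtap7, Tubb5, Cntn2, Ppp2r2a, Ppp2r2b and Mapk8 were named after their values were seen. One gene that the rule names is not reported here.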

Additional observations from a re-analysis of the deposited data

How the results depend on the processing

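Each gene was refitted under 14 alternatives and under 2 added after seeing the data, median scaling joined with the omission of IP 1 or with the replicate block. The log2 folds of Nefl (0.75 to 1.01), Nefm (0.63 to 1.04), Nefh (0.60 to 1.06), Ina (0.15 to 0.40), Tubb3 (0.37 to 0.84), Mapt (0.05 to 0.28), Gap43 (-0.48 to -0.09) and Stmn2 (-0.73 to -0.22) kept their sign in all 16. Except for that of Nefl, their sizes moved by more than 1.5 times. Nefm (1.04) and Nefh (1.06) passed without IP 1 after median scaling too. Map2 turned to -0.37 without IP 1, -0.03 without Input 2 and -0.19 without IP 1 after median scaling. Uchl1 turned to 0.079 after median scaling, with or without the block, 0.13 without IP 3, 0.11 without Input 2 and 0.026 without IP 1 after median scaling. Over the omissions alone Map2 ran from -0.37 to 0.33 and Uchl1 from -0.38 to 0.13. The number of the 10 genes called was 0 except for the omission of IP 1 (2, also after median scaling), and 0 to 2 over the omissions. Their median log2 fold was 0.34 after median scaling, with or without the block, 0.31 after median scaling without IP 1, and 0.13 to 0.31 over the omissions. Over all genes 249 were called after median scaling and 253 after quantile normalization, against 516, and 1229 without IP 1 after median scaling. Omissions gave 21 (without Input 2) to 1693 (without IP 1). The Nefh to Nefl difference ran from -0.25 to 0.12 over the omissions, that of Map2 to Mapt from -0.47 to 0.19, that of Gap43 to Stmn2 from 0.07 to 0.41 and that of Nefl to Tubb3 from 0.12 to 0.56. Pairing each challenge in an exact sign-flip test, whose smallest p is 0.25, left the 4 ratio differences at p = 0.25 to 1.0. The cause of these movements was not tested. With the block 656 genes were called in all and 0 of the 10.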
